A study of Mus musculus with 12 samples.

Results

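The genes described here encode the semaphorins, ephrins, slits and netrins, which are the 4 classical groups of guidance ligands, together with their plexin, neuropilin, Eph, Robo and Unc5 or Dcc receptors. Of 55367 genes in the count table, 69 had a symbol of one of these families, and 55 of them reached 10 or more counts in at least 2 of the 12 libraries. Those 55 are described, and the other 14, which are Dcc, Epha6, Epha8, Epha10, Ntn5, Plxna4, Plxnb3, Plxnc1, Robo4, Sema3g, Sema5b, Slit3, Unc5a and Unc5d, fell below that count. Just inside the rule stood Sema3a, whose second-highest library held 10 counts, and just outside it stood Unc5a, whose second-highest library held 8 counts and whose highest held 20.

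Guidance ligands are secreted or held at the cell surface and tell neighbouring cells or growing axons where to go, by collapse, repulsion or attraction. Secreted class 3 semaphorins act on a neuropilin paired with a plexin, while the membrane-bound classes bind plexins directly. Ephrins are tethered to membranes, so an ephrin and its Eph receptor tyrosine kinase signal only between cells in contact, and in both directions. Slits bind Robo receptors, and netrins bind Dcc, neogenin and Unc5 receptors or, for netrin-4, laminins of the basement membrane. In stratified epithelia such as that of the tongue these molecules are known for cell sorting, migration and contact with the basement membrane, and in taste papillae for the ingrowth of nerve fibres.

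The libraries were polyA RNA-seq of mouse tongue organoids, which are epithelial cultures grown as clusters in gel, with a stranded kit. One line came from the circumvallate papilla (CVP), the trench-bearing papilla at the back of the tongue, and the other from the foliate papilla (FoP) at its side. In each line 4 libraries were labelled Foxe1 knock-out and 2 wild type (WT). The CVP knock-out libraries were clones 2.9 and 2.10 in duplicate, the FoP knock-out libraries were clones 2.4 and 2.5 in duplicate, and each WT was 1 culture in duplicate. Foxe1 encodes a forkhead transcription factor, and the labels describe the alteration only as a genetic modification. The WT cultures carry no clone label, so clonal derivation and genotype cannot be told apart. The labels name no separate animals, so every p-value below measures the spread between these libraries, which may be technical.

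The 12 libraries held 59260916 to 73568645 counts and 21421 to 22602 genes with a count. Foxe1 itself had 1527 and 1432 counts in clone 2.9, 487 and 547 in clone 2.10, and 1049 and 1144 in CVP WT. It had 1471 and 1292 counts in clone 2.4, 707 and 660 in clone 2.5, and 1124 and 989 in FoP WT. The amount of transcript therefore did not separate the labels, with a log2 change of -0.01 ± 0.52 (SE) in CVP and 0.01 ± 0.52 in FoP, and it does not check them, since a count over the whole gene does not show a change within it. Groups are called knock-out here by their labels. All libraries carried the epithelial markers (a summed 9178 to 14769 CPM, counts-per-million of TMM-scaled library size, for 6 genes), whereas the 8 endothelial markers summed to at most 3.13 CPM, with Erg and Cldn5 at 0, and the 10 nerve and glia markers to at most 6.48 CPM, with Elavl4 at 0. The 8 immune markers summed to 10.2 to 18.1 CPM in CVP knock-out libraries, against 103 to 108 CPM in CVP WT, and to 38.0 to 66.7 CPM in FoP knock-out libraries, against 65.4 to 69.5 CPM in FoP WT, and Ptprc, the pan-leukocyte gene of that list, was at 0. The 9 fibroblast markers were almost all Postn, at 2789 to 4677 CPM in CVP knock-out libraries, against 1307 to 1569 CPM in CVP WT, and 2783 to 5951 CPM in FoP knock-out libraries, against 827 to 937 CPM in FoP WT, and the other 8, with Lum at 0, summed to at most 9.89 CPM. Single genes of these lists differed too. Lyz2 was at 0 in all knock-out libraries, against 16.2 to 29.8 CPM in CVP WT and 2.85 to 5.44 CPM in FoP WT. Cd68 had 1.42 to 5 CPM in knock-out libraries, against 11.9 to 14.4 CPM in WT. H2-Ab1, the largest part of the immune sum, had 8.79 to 15.8 CPM in CVP knock-out libraries, against 64.4 to 72.7 CPM in CVP WT. In FoP it overlapped, with 33.9 to 61.9 CPM in knock-out libraries, against 48.1 to 52.2 CPM in WT. Pecam1 had 1.31 to 2.71 CPM in knock-out libraries, against 0.305 to 0.722 CPM in WT, and Tek went the other way. Tubb3 had 1.05 to 4.26 CPM in CVP knock-out libraries, against 0.208 to 0.498 CPM in CVP WT, and overlapped in FoP. The fibroblast list did not move in 1 direction. Pdgfra had 2.54 to 5.26 CPM in knock-out libraries, against 0.857 to 1.37 CPM in WT. Dcn went the other way, with 0.186 to 0.475 CPM in knock-out libraries, against 0.776 to 1.97 CPM in WT. The part of these genes in the changes below was not tested.

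Promoters of 4 members that the results return to are printed to show what lies upstream of them: Slit2 and Ephb1, which were higher in the knock-out libraries of both lines, and Sema7a and Sema4d, which were lower in both. Each runs from 250 bases before to 50 after the annotated start (RefSeq, GRCm38.p6), 5′ to 3′ on the gene's strand. Slit2 lies at chr5:47982905-47983204 on the plus strand, Ephb1 at chr9:102354644-102354943 on the minus strand, Sema7a at chr9:57939862-57940161 on the plus strand, and the Sema4d start shown, 1 of 3 in the table, at chr13:51756634-51756933 on the minus strand. Capitals mark the forkhead core TGTTTA read on either strand (TAAACA on the printed strand) or the TATA motif TATAAA on the gene's strand.
Slit2: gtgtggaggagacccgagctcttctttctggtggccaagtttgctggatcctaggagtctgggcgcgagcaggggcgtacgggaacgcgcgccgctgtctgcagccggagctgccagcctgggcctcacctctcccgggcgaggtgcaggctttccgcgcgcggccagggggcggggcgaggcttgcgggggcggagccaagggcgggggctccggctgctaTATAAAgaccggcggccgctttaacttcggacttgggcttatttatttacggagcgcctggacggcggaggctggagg
Ephb1: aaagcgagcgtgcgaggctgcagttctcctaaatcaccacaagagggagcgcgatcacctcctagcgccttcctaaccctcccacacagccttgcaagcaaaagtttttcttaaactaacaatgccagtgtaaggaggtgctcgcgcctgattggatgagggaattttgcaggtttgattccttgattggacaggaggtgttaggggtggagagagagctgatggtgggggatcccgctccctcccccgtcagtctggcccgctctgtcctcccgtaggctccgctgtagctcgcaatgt
Sema7a: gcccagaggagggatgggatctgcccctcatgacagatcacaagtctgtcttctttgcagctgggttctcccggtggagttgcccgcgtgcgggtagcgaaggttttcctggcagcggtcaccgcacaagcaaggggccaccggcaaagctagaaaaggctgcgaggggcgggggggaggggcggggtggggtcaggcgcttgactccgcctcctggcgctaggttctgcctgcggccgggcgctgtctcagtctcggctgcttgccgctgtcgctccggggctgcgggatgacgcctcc
Sema4d: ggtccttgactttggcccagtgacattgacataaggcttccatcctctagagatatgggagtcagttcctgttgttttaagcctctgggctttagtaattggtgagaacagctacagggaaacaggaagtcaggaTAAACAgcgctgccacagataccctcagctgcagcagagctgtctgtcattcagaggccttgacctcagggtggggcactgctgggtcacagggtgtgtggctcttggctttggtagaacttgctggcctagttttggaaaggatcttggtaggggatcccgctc

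Among these 4 stretches the forkhead core occurs in Sema4d alone and TATAAA in Slit2 alone. The Sema4d start was printed because it holds the core, which the other 2 starts of that gene lack. Of the 55 members, 48 had an entry, with 64 promoters between them, and the core was in 1 of these 64 (1.56%), against 4416 of all 32851 promoters in the table (13.4%). TATAAA was likewise in 1 of 64 member promoters (1.56%), against 8.32% of all promoters. Member promoters were richer in G and C, with a median of 64.2%, against 52.7% for all promoters, and a median of 18.5 CG dinucleotides, against 7. Both motifs are rich in A and T. A match is only a string of letters, and its absence from a 300-base window says nothing about binding elsewhere.

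Levels between genes were compared as CPM per kb of exon. By this measure Plxnb2, a receptor for class 4 semaphorins, stood first with a mean of 94.0 CPM per kb over the 12 libraries. Ntn4, the basement membrane netrin, followed with 81.9 CPM per kb, and Epha2, the main EphA receptor of many epithelia, with 56.2 CPM per kb. Sema3f led the semaphorins with 49.9 CPM per kb, Efna1 the ephrins with 44.7 CPM per kb, and Robo1 the Slit and Robo genes with 8.62 CPM per kb. The order was not the same in every arm: Ntn4 was at 95.9 CPM per kb in CVP knock-out and 101 in FoP knock-out libraries, above Plxnb2 at 87.6 and 90.7 CPM per kb there, while in WT Plxnb2 led with 109 (CVP) and 98.5 CPM per kb (FoP) over Ntn4 at 51.9 and 46.2. At the low end stood Sema3a at 0.00439, Epha5 at 0.0173 and Unc5c at 0.0341 CPM per kb. The 55 members together took 3809 to 3886 CPM in CVP knock-out libraries, against 4133 to 4218 CPM in CVP WT, and 3881 to 3940 CPM in FoP knock-out libraries, against 3745 to 3792 CPM in FoP WT.

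**Figure D1:**
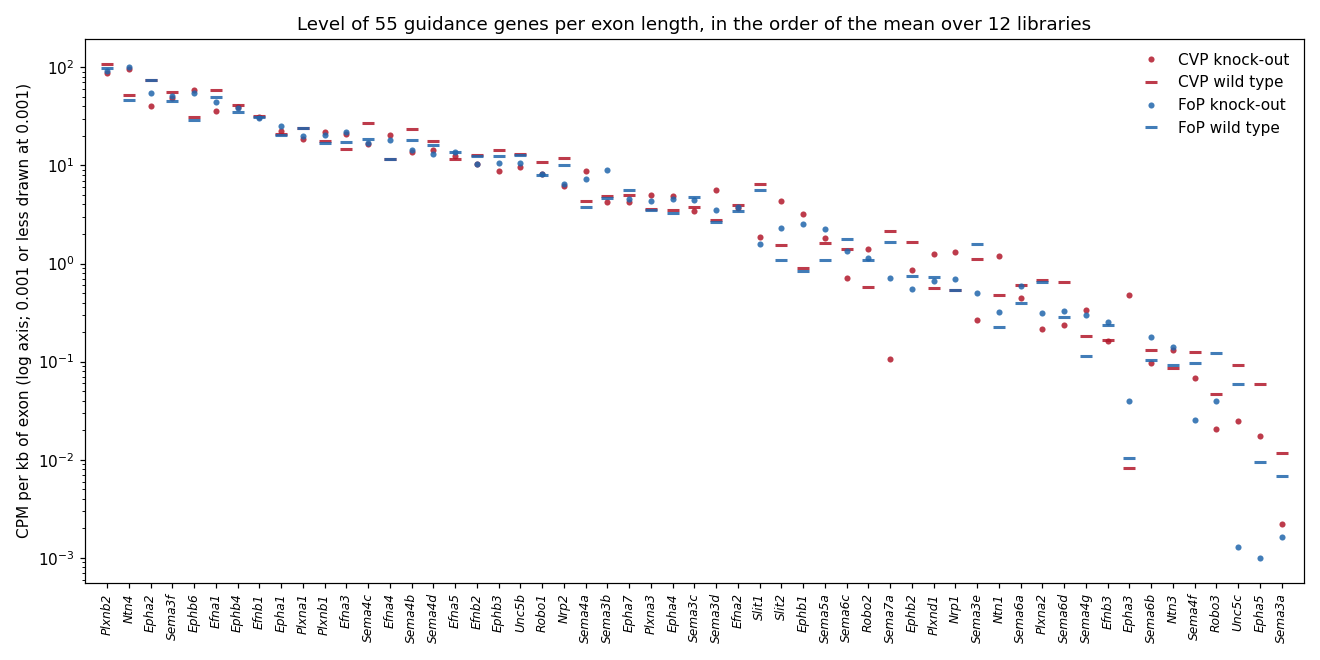
Mean level of the 55 members in CPM per kb of exon (log axis), ordered by the mean over 12 libraries, with knock-out means as circles and WT means as dashes (CVP red, FoP blue; 4 knock-out and 2 WT libraries per line). Plxnb2, Ntn4 and Epha2 head the order, and circles and dashes lie clearly apart at Sema7a, Sema3e, Epha3 and Unc5c, among others.

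In CVP organoids, 15 of the 55 members were higher and 19 lower in knock-out than in WT libraries (edgeR quasi-likelihood test, Benjamini-Hochberg adjusted p under 0.05 over all 17076 genes tested). Those counts are 27.3% and 34.5% of the members, beside a background of 23.5% of all tested genes called higher and 22.9% called lower. In FoP organoids, 15 members were higher (27.3%) and 16 lower (29.1%), beside 13.5% and 15.3% of all tested genes. The median log2 change of the members was -0.21 in CVP and 0.02 in FoP, where all tested genes had 0.03 and 0.01. Without regard to sign, the median log2 change was 0.80 in CVP and 0.41 in FoP, beside 0.37 and 0.25 over all tested genes. When the duplicates were summed, so that each culture counted as 1 sample, 22 members passed in CVP and 5 in FoP. Without either duplicate of FoP WT the FoP count was 18 (without duplicate 1) or 15 (without duplicate 2). Of the CVP calls, 28 of 34 held without any 1 library, and Ntn1, Plxnb1, Sema3f, Sema4d, Sema6d and Unc5c were lost without 1 or more of them (adjusted p up to 0.1). The FoP calls that so held were those of Efna4, Epha1, Epha2, Epha4, Ephb1, Ephb6, Ntn4, Plxna1, Sema4a, Sema5a, Slit2 and Unc5c. Leaving out 1 library kept the other duplicate of its culture, so it does not cover the spread between cultures. With duplicates summed, the FoP calls of Ephb1, Ephb6, Sema4a, Sema5a and Slit2 alone remained. In CVP that setting lost the calls of Epha3, Ntn1, Ntn4, Plxnb2, Sema3e, Sema3f, Sema4d, Sema6c, Sema6d, Slit1, Unc5b and Unc5c. Losses listed below for single members leave this setting out unless it is named.

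The lines, which share no library, called 10 members higher in both: Efna3, Efna4, Epha4, Ephb1, Ephb6, Ntn4, Plxna3, Plxnb1, Sema4a and Slit2. They called 12 lower in both: Epha2, Ephb3, Nrp2, Plxna1, Plxna2, Sema3e, Sema4b, Sema4d, Sema7a, Slit1, Unc5b and Unc5c. Over all tested genes 9.2% were higher in both and 10.1% lower in both. Sema3f was called lower in CVP and higher in FoP, no member was called the other way round, and 13 were called in neither line. Each family with more than 1 called member held members of both directions in CVP or FoP, apart from the netrins, whose called members were higher, the Unc5 receptors and class 6 semaphorins, whose called members were lower. Groups without overlap were common. Only 12 members had overlapping groups in CVP and 18 in FoP. Between the WT cultures 18 overlapped, between clones 2.10 and 2.9 it was 23, and between clones 2.5 and 2.4 it was 20. The share over all genes was not counted, so groups lying apart are not by themselves a result about a member. In bulk RNA, fewer cells of a type and less RNA per cell cannot be told apart.

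**Figure D2:**
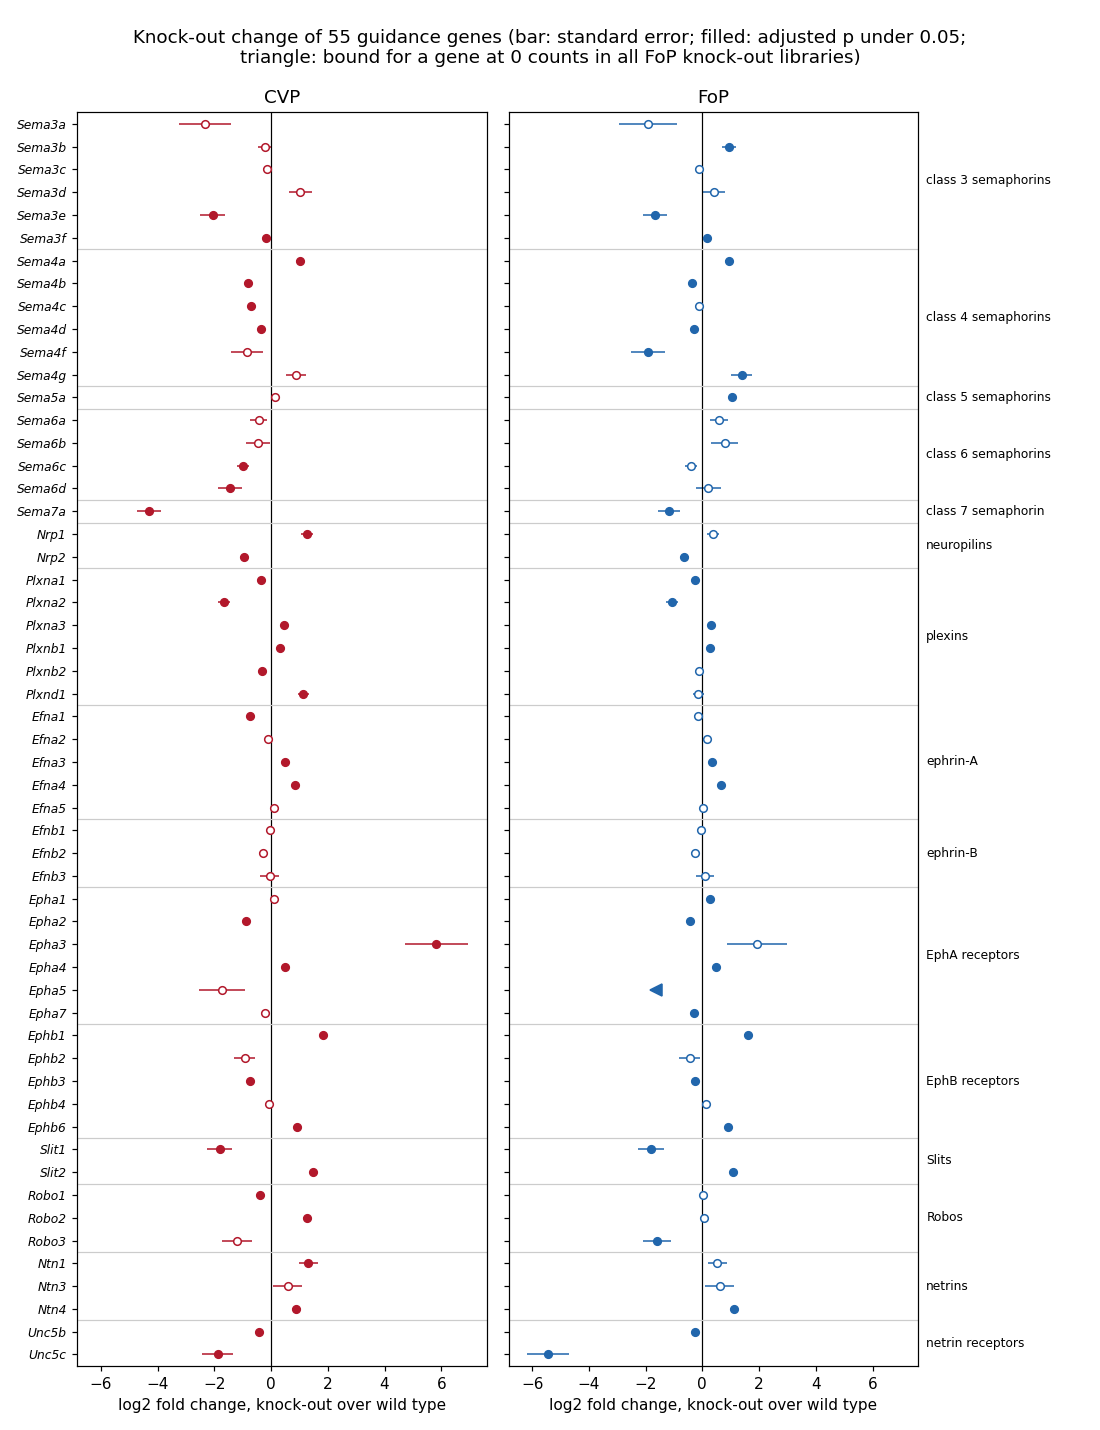
Log2 fold change, knock-out over WT, of the 55 members by family in CVP (left) and FoP (right); bars are standard errors, filled circles passed an adjusted p of 0.05, and the triangle is the bound for Epha5, which had 0 counts in all FoP knock-out libraries. Ephb1, Ephb6, Slit2, Ntn4 and Sema4a lie right of zero and Slit1, Sema3e, Sema7a and Plxna2 left of zero in both panels.

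Among the secreted class 3 semaphorins, 2 of 6 were lower in CVP knock-out libraries, and in FoP 2 were higher and 1 lower. Sema3e, which binds plexin-D1 without a neuropilin, had 3.37 and 3.83 CPM in clone 2.9 and 1.42 and 1.14 CPM in clone 2.10, against 9.61 and 10.8 CPM in CVP WT. It had 3.36 and 5.93 CPM in clone 2.4 and 3.56 and 5.62 CPM in clone 2.5, against 14.8 CPM in both FoP WT duplicates. All 8 knock-out libraries were thus below all 4 WT libraries, though Sema3e was called in neither line with duplicates summed. The log2 fall was -2.06 ± 0.43 in CVP (edgeR adjusted p = 0.00286) and -1.68 ± 0.42 in FoP (edgeR adjusted p = 0.014), and the FoP call was lost without either WT duplicate (adjusted p = 0.0681 and 0.0682) or without either clone (0.0584 without clone 2.4, 0.0686 without clone 2.5).

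Sema3f, the most abundant semaphorin, had 232 to 263 CPM in CVP knock-out libraries, against 287 and 289.9 CPM in WT, and 256 to 274 CPM in FoP knock-out libraries, against 229 and 239.5 CPM in WT. Its groups did not overlap in either line, but the changes were small, at -0.19 ± 0.06 and 0.17 ± 0.06 on the log2 scale (edgeR adjusted p = 0.0132 and 0.0407). The FoP call was lost without clone 2.4 (edgeR adjusted p = 0.067) and without clone 2.5 (0.0967). Sema3b, a repulsive ligand first studied as a tumour suppressor, had 34.3 and 31.8 CPM in clone 2.4 and 53.7 and 51.4 CPM in clone 2.5, against 22.7 and 21.9 CPM in FoP WT, a rise of 0.94 ± 0.26 (edgeR adjusted p = 0.0231). Without clone 2.5 the Sema3b call was lost (edgeR adjusted p = 0.0689). In CVP it had 17.4 and 15.7 CPM in clone 2.9 and 24.4 and 24.1 CPM in clone 2.10, against 22.2 and 24.9 CPM in WT, so that clone 2.9 alone lay below WT. Sema3d had 41.2 and 59.3 CPM in clone 2.9 and 38.9 and 54.8 CPM in clone 2.10, against 24.4 and 23.0 CPM in CVP WT, without passing the test (adjusted p = 0.0646). In FoP it had 44.1 and 39.4 CPM in clone 2.4, yet 20.0 and 16.1 CPM in clone 2.5, against 22.5 and 22.6 CPM in WT, so the FoP clones lay on opposite sides of WT. Sema3c, known from heart outflow tract development, had 23.6 to 25.6 CPM in CVP and 28.3 to 34.7 CPM in FoP knock-out libraries, against 22.9 and 31.5 and against 31.9 and 36.7 CPM in the WT of each line. Sema3a, the archetypal collapsing factor, had at most 4 counts in any knock-out library and 2 to 16 counts in WT libraries.

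The membrane-bound class 4 semaphorins split by member. Sema4a, known from immune cells and the retina, had 40.7 to 51.5 CPM in CVP knock-out libraries, against 20.1 and 26.5 CPM in WT, and 36.0 to 42.5 CPM in FoP knock-out libraries, against 18.8 and 22.1 CPM in WT. It rose by 1.01 ± 0.13 in CVP (edgeR adjusted p = 6.03e-05) and 0.93 ± 0.13 in FoP (edgeR adjusted p = 0.00028). Sema4b moved the other way, with 71.0 to 81.2 CPM in CVP knock-out libraries, against 132 and 135 CPM in WT, and 71.6 to 87.4 CPM in FoP knock-out libraries, against 94.5 and 112 CPM in WT. Sema4d, the ligand of plexin-B1, fell by 0.34 in CVP and 0.31 in FoP on the log2 scale (edgeR adjusted p = 0.00475 and 0.0134). Its FoP call was lost without clone 2.5 (edgeR adjusted p = 0.0737). Sema4c, a ligand of plexin-B2, had 83.5 and 78.7 CPM in clone 2.9 and 69.9 and 72.6 CPM in clone 2.10, against 123 and 124 CPM in CVP WT, a fall of 0.70 on the log2 scale (edgeR adjusted p = 2.51e-05). FoP knock-out libraries had 70.2 to 85.7 CPM, against 80.8 and 88.8 CPM in WT, and the groups overlapped. Exons of Sema4c overlap those of D430040D24Rik on the other strand, which had at most 408 counts, and as the sources used here do not say whether the counting used strand, reads of the pair cannot be told apart there. Sema4g rose in FoP by 1.38 ± 0.36 (edgeR adjusted p = 0.0124), with 1.87 and 1.92 CPM in clone 2.4 and 3.50 and 3.07 CPM in clone 2.5, against 0.712 and 1.28 CPM in WT. That call was lost without FoP WT duplicate 1 (adjusted p = 0.152) and without clone 2.5 (0.0725), and in CVP Sema4g had 2.09 to 3.80 CPM in knock-out libraries, against 1.54 and 1.60 CPM in WT (adjusted p = 0.0504). Sema4f was low throughout, with 2 to 20 counts in FoP knock-out libraries, against 40 and 28 counts in WT (adjusted p = 0.0278). Its call was lost without clone 2.5 (edgeR adjusted p = 0.127).

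Sema5a, a transmembrane ligand with thrombospondin repeats, had 47.5 and 42.3 CPM in clone 2.4 and 41.7 and 38.0 CPM in clone 2.5, against 21.0 and 19.9 CPM in FoP WT, a rise of 1.05 ± 0.09 (edgeR adjusted p = 8.67e-06). In CVP it had 31.6 to 37.5 CPM in knock-out libraries, against 30.2 and 30.6 CPM in WT, with a log2 change of 0.15 ± 0.09. The groups were apart in both lines, and only the FoP difference passed the test.

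Of the 4 class 6 semaphorins, which bind plexin-A receptors in trans and in cis, Sema6c and Sema6d were lower in CVP knock-out libraries. Sema6c had 4.70 and 4.99 CPM in clone 2.9 and 2.92 and 4.44 CPM in clone 2.10, against 8.35 and 8.45 CPM in CVP WT (-0.98 ± 0.21, edgeR adjusted p = 0.00235). Sema6d had 1.66 and 1.55 CPM in clone 2.9 and 3.49 and 3.36 CPM in clone 2.10, against 5.83 and 7.91 CPM in CVP WT (-1.45 ± 0.41, edgeR adjusted p = 0.0132). Both pairs of groups were apart, and the Sema6d call was lost without clone 2.9 (edgeR adjusted p = 0.0657). In FoP, Sema6c had 8.87 and 9.66 CPM in clone 2.4 and 6.61 and 6.79 CPM in clone 2.5, against 12.3 and 8.77 CPM in WT, and Sema6d had 2.49 and 2.18 CPM in clone 2.4 and 5.72 and 3.64 CPM in clone 2.5, against 3.47 and 2.57 CPM in WT, with overlap in both. Sema6a had 2.90 to 4.89 CPM in CVP knock-out libraries, against 5.73 and 4.82 CPM in WT, and Sema6b had at most 0.79 CPM in any library. Neither passed the test in either line.

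Sema7a, the one semaphorin anchored by a lipid and a ligand of integrins and plexin-C1, showed, in CVP, the steepest fall of any member with at least 1 CPM on average. It had 0.620 and 0.459 CPM in clone 2.9 and 0.151 and 0.186 CPM in clone 2.10, against 7.31 and 6.80 CPM in CVP WT, a log2 change of -4.31 ± 0.43 (edgeR adjusted p = 1.22e-05). In FoP it had 1.88 and 1.66 CPM in clone 2.4 and 3.15 and 2.81 CPM in clone 2.5, against 4.88 and 5.90 CPM in WT, a log2 change of -1.18 ± 0.39 (edgeR adjusted p = 0.0415). All knock-out libraries lay below the WT libraries of their line, but the FoP call of Sema7a was lost with duplicates summed. The CVP call held under every alternative tried, whereas the FoP call was lost without filtering of low genes (adjusted p = 0.108), with the duplicate number as a block (adjusted p = 0.0582), without clone 2.4 (0.179), without either WT duplicate (0.115 and 0.217), and without either duplicate of clone 2.4 or duplicate 2 of clone 2.5 (0.0899, 0.0875 and 0.0525).

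**Figure D3:**
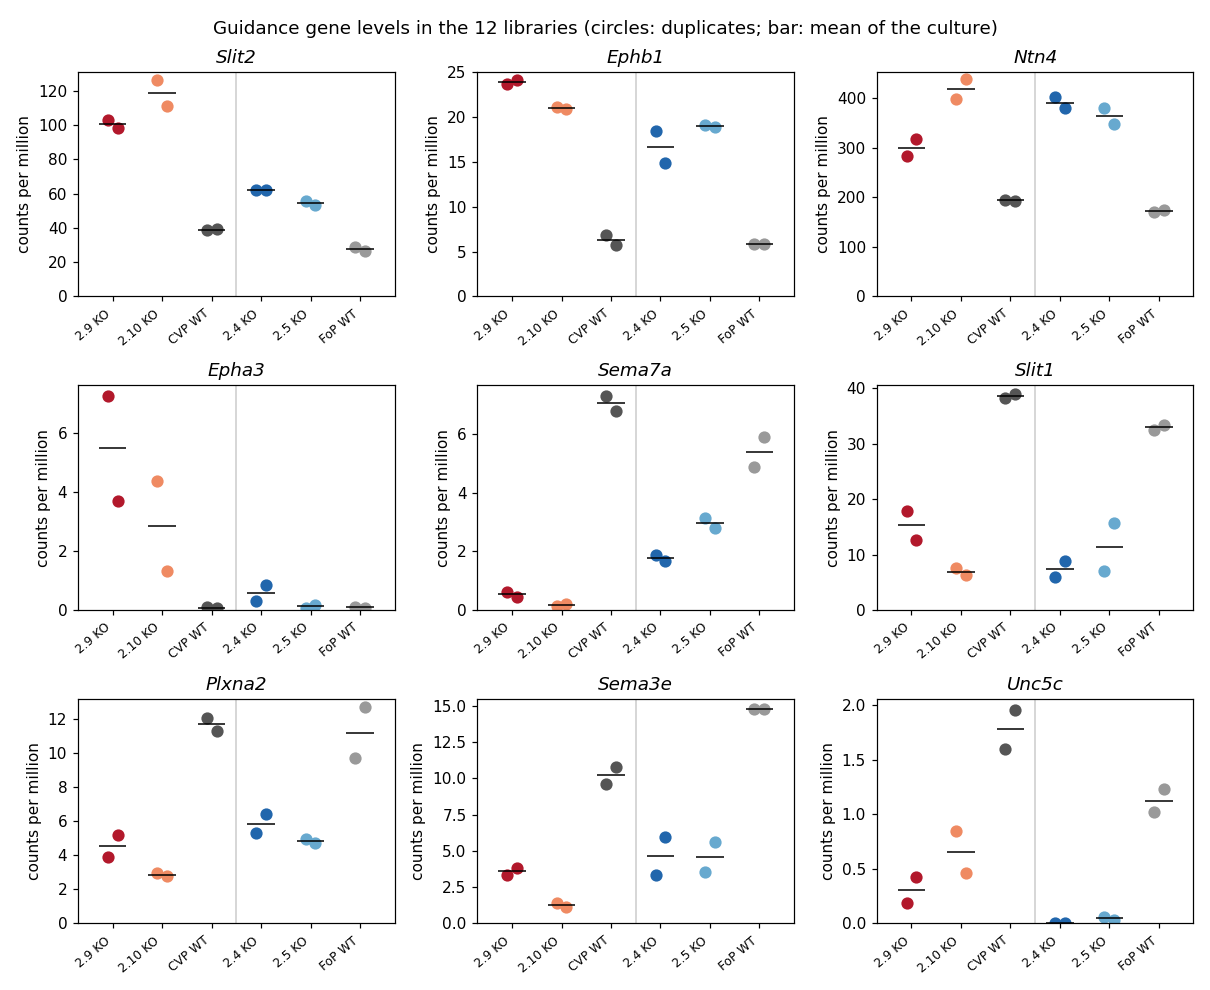
CPM of 9 members in each of the 12 libraries, with clones left of the WT of their line and a bar at the mean of each culture's duplicates; each vertical axis starts at 0. The upper row and Epha3 show genes higher in knock-out libraries of CVP, and the other 5 panels show genes with every knock-out library below the WT libraries of its line.

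Turning to the receptors, neuropilin-2 fell in both lines and neuropilin-1 rose in CVP. Nrp2, the co-receptor for Sema3f, had 59.8 to 89.7 CPM in CVP knock-out libraries, against 135 and 150.2 CPM in WT, and 67.4 to 89.0 CPM in FoP knock-out libraries, against 116 and 122 CPM in WT. Its log2 changes were -0.96 ± 0.15 and -0.63 ± 0.16 (edgeR adjusted p = 0.000552 and 0.0119). The FoP call of Nrp2 was lost without clone 2.5 (edgeR adjusted p = 0.0718). Nrp1, which also binds Sema3a and vascular endothelial growth factor, rose in CVP, with 10.7 to 16.4 CPM in knock-out libraries, against 4.54 and 6.02 CPM in WT (1.27 ± 0.22, edgeR adjusted p = 0.000464). In FoP it had 5.56 to 8.58 CPM in knock-out libraries, against 4.87 and 5.52 CPM in WT, and did not pass (adjusted p = 0.194).

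All 6 described plexins were called in CVP, with 3 higher and 3 lower, and 4 were called in FoP. Of all tested genes, 23.5% were called higher and 22.9% lower in CVP, and 13.5% and 15.3% in FoP. Plxna2, a receptor for class 6 semaphorins, had 3.91 and 5.20 CPM in clone 2.9 and 2.95 and 2.80 CPM in clone 2.10, against 12.1 and 11.3 CPM in CVP WT. It had 5.30 and 6.42 CPM in clone 2.4 and 4.99 and 4.72 CPM in clone 2.5, against 9.72 and 12.7 CPM in FoP WT. The groups were apart in both lines, with log2 changes of -1.65 ± 0.21 (edgeR adjusted p = 5.31e-05) and -1.06 ± 0.21 (edgeR adjusted p = 0.00271, and 0.0553 without FoP WT duplicate 2). The FoP call of Plxna2 was also lost with duplicates summed. Plxna1 fell by 0.36 in CVP and by 0.27 in FoP on the log2 scale, while Plxna3 rose by 0.47 and 0.29 and Plxnb1 by 0.30 and 0.26. Plxnd1, the Sema3e receptor, had 10.2 and 8.84 CPM in clone 2.9 and 9.61 and 7.89 CPM in clone 2.10, against 4 and 4.29 CPM in CVP WT, a rise of 1.14 ± 0.19 (edgeR adjusted p = 0.000283). The FoP clones had 3.74 and 4.26 CPM in clone 2.4 and 5.48 and 5.95 CPM in clone 2.5, against 5.23 and 5.50 CPM in WT, so that the clones straddled WT. In CVP, therefore, the ligand Sema3e was lower and its receptor higher. Plxnb2 had 709 and 726 CPM in clone 2.9 and 643 and 626 CPM in clone 2.10, against 852 and 829 CPM in CVP WT (-0.31 ± 0.06, edgeR adjusted p = 0.00113), and 693 to 716 CPM in FoP knock-out libraries, against 759 and 763 CPM in WT (adjusted p = 0.177). It alone made up 16.1 to 18.7% of the members' summed CPM in CVP knock-out libraries, against 20.1 to 20.2% in CVP WT.

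Of the ephrins, the contact-bound ligands, 2 were higher and 1 lower in CVP, and 2 were higher in FoP. Efna1, the ligand most often paired with Epha2 in epithelia, had 62.5 and 66.2 CPM in clone 2.9 and 61.5 and 70.5 CPM in clone 2.10, against 117 and 98.9 CPM in CVP WT, a fall of 0.73 on the log2 scale (edgeR adjusted p = 0.000135). Its FoP values were 88.3 and 90.9 CPM in clone 2.4 and 72.2 and 71.6 CPM in clone 2.5, against 88.8 and 93.4 CPM in WT. Clone 2.4 thus overlapped WT and clone 2.5 lay below it. Efna4 had 28.3 to 35.7 CPM in CVP knock-out libraries, against 18.3 and 18.4 CPM in WT, and 26.5 to 31.4 CPM in FoP knock-out libraries, against 18.1 and 19.2 CPM in WT, with rises of 0.83 and 0.64 on the log2 scale (edgeR adjusted p = 1.68e-05 and 0.000292). Efna3, a neighbour of Efna1 and Efna4 on chromosome 3, rose by 0.48 and 0.33. These 3 genes lie between positions 89271733 and 89338028 of chromosome 3 (GRCm38), and in CVP the first fell while the other two rose. Efna2 and Efna5 did not pass the test in either line, nor did any of the transmembrane ephrins Efnb1, Efnb2 and Efnb3, whose log2 changes lay between -0.30 and -0.02 in CVP and between -0.27 and 0.09 in FoP (edgeR adjusted p of 0.0563 or more; Efnb2 in CVP had an unadjusted p of 0.0268).

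Epha2 fell in both lines. It had 185 and 194 CPM in clone 2.9 and 177 and 196 CPM in clone 2.10, against 364 and 327 CPM in CVP WT, and 231 and 249 CPM in clone 2.4 and 249 and 293 CPM in clone 2.5, against 355 and 332 CPM in FoP WT. The groups were apart, with falls of 0.88 (edgeR adjusted p = 4.70e-06) and 0.43 (edgeR adjusted p = 0.00193) on the log2 scale. Epha4, a receptor for ephrins of both classes, rose by 0.48 in CVP and 0.49 in FoP, with 35.5 to 41.2 CPM in the 8 knock-out libraries, against 26.0 to 29.4 CPM in the 4 WT libraries. Epha1 had 96.1 to 100.1 CPM in FoP knock-out libraries, against 79.3 and 82.6 CPM in WT (0.28 ± 0.05, edgeR adjusted p = 0.00126), and its exons overlap those of Zyx on the other strand, which had up to 11419 counts, so that reads of this pair cannot be told apart there either. Epha7 had 40.6 to 50.3 CPM in FoP knock-out libraries, against 51.6 and 59.4 CPM in WT (edgeR adjusted p = 0.0277). That call was lost without clone 2.4 (edgeR adjusted p = 0.169).

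A pair of EphA receptors had few counts in some groups. Epha3 had 7.26 and 3.71 CPM in clone 2.9 and 4.38 and 1.33 CPM in clone 2.10 (86 to 468 counts), against 0.0879 and 0.0555 CPM in CVP WT (6 and 4 counts), a log2 change of 5.83 ± 1.12 (edgeR adjusted p = 0.00163). The duplicates of 1 clone differed by up to 1.72 on the log2 scale, more than for any other member of at least 1 CPM, and the call was lost with culture as a block in limma voom (adjusted p = 0.0873) and with duplicates summed (0.0582). In FoP, Epha3 had 21 and 54 counts in clone 2.4 and 4 and 10 counts in clone 2.5, against 8 and 4 counts in WT. Epha5 had 0 counts in all 4 FoP knock-out libraries, against 2 and 18 counts in FoP WT, which is at least 3.08-fold lower at a floor of 3 counts per library. That bound rests on FoP WT duplicate 2: duplicate 1 was itself under the floor, and the call was lost without duplicate 2 (adjusted p = 0.241). It had 4 to 41 counts in CVP knock-out libraries, against 60 and 79 counts in CVP WT, and all knock-out libraries were below WT (adjusted p = 0.11).

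Of the 5 EphB receptors, 3 changed the same way in both lines. Ephb1 had 23.7 and 24.1 CPM in clone 2.9 and 21.1 and 20.9 CPM in clone 2.10, against 6.88 and 5.76 CPM in CVP WT. It had 18.4 and 14.9 CPM in clone 2.4 and 19.1 and 18.9 CPM in clone 2.5, against 5.88 and 5.87 CPM in FoP WT. The lowest knock-out library thus held more than every WT library, and the rises were 1.83 ± 0.12 and 1.60 ± 0.12 on the log2 scale (edgeR adjusted p = 7.25e-07 and 4.14e-06). This was the one member called under every alternative in both lines. Ephb6, a receptor whose kinase domain is inactive, had 205 to 240.5 CPM in CVP and 194 to 213 CPM in FoP knock-out libraries, against 117 and 119.9 CPM in CVP WT and 107 and 114 CPM in FoP WT, rises of 0.91 and 0.90. Ephb3, known for cell positioning in intestinal crypts, had 55 to 60.5 CPM in CVP knock-out libraries, against 92.5 and 99.7 CPM in WT, and 69.5 to 73.2 CPM in FoP knock-out libraries, against 81.0 and 86.9 CPM in WT. Ephb2, its partner in the crypt, had 14.7 and 14.6 CPM in clone 2.9 and 7.83 and 6.63 CPM in clone 2.10, against 20.3 and 21.0 CPM in CVP WT, and 4.12 and 5.87 CPM in clone 2.4 and 8.60 and 9.04 CPM in clone 2.5, against 9.40 and 9.51 CPM in FoP WT. All knock-out libraries were below WT in both lines, and neither comparison passed the test (adjusted p = 0.0659 and 0.418). Ephb4 had 162 to 203 CPM in CVP and 165 to 182 CPM in FoP knock-out libraries, against 187 and 196 and against 160.3 and 163 CPM in the WT of each line, and was not called.

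The Slit ligands moved in opposite directions in both lines. Slit2 had 103 and 98.2 CPM in clone 2.9 and 126 and 111 CPM in clone 2.10, against 38.5 and 39.3 CPM in CVP WT. It had 62.1 and 61.9 CPM in clone 2.4 and 55.9 and 53.4 CPM in clone 2.5, against 28.6 and 26.5 CPM in FoP WT. The rises were 1.49 ± 0.10 (edgeR adjusted p = 5.58e-07) and 1.08 ± 0.10 (edgeR adjusted p = 1.01e-05), and the groups were far apart. Slit1 had 17.9 and 12.6 CPM in clone 2.9 and 7.53 and 6.31 CPM in clone 2.10, against 38.3 and 38.9 CPM in CVP WT. It had 5.96 and 8.90 CPM in clone 2.4 and 7.07 and 15.7 CPM in clone 2.5, against 32.5 and 33.4 CPM in FoP WT. Every knock-out library held less than every WT library, with log2 changes of -1.80 ± 0.44 (edgeR adjusted p = 0.00936) and -1.81 ± 0.45 (edgeR adjusted p = 0.0155), and the FoP call was lost without FoP WT duplicate 1 or 2 (adjusted p = 0.0684 and 0.0732) and without clone 2.4 (0.0906). With duplicates summed, Slit1 was called in neither line. Per kb of exon the order of Slit1 and Slit2 differed between genotypes: Slit1 was at 1.87 and Slit2 at 4.31 CPM per kb in CVP knock-out libraries, against 6.52 and 1.53 CPM per kb in CVP WT. In FoP, Slit1 was at 1.59 and Slit2 at 2.29 CPM per kb in knock-out libraries, against 5.57 and 1.08 CPM per kb in WT. This order depends on the exon lengths used, 5.92 kb for Slit1 and 25.4 kb for Slit2. Without division by length, the means in CVP WT were alike, at 38.6 CPM for Slit1 and 38.9 CPM for Slit2. In FoP WT they were 33 and 27.6 CPM.

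Of their receptors, Robo2 rose and Robo1 fell in CVP. Robo2 had 22.4 and 23.9 CPM in clone 2.9 and 25.4 and 22.6 CPM in clone 2.10, against 9.39 and 10.3 CPM in CVP WT, a rise of 1.26 ± 0.13 (edgeR adjusted p = 8.27e-06). In FoP it had 22.4 and 20.5 CPM in clone 2.4 and 18.5 and 15.6 CPM in clone 2.5, against 17.7 and 19.4 CPM in WT, with overlap. Robo1 had 141 and 137 CPM in clone 2.9 and 133 and 134 CPM in clone 2.10, against 171 and 187 CPM in CVP WT (-0.39 ± 0.05, edgeR adjusted p = 7.21e-05), and 129.7 to 143 CPM in FoP knock-out libraries, against 128 and 137 CPM in WT. Robo3, known for commissural axons crossing the midline, had 12 to 25 counts in FoP knock-out libraries, against 52 and 57 counts in WT (edgeR adjusted p = 0.0262), and 4 to 14 counts in CVP knock-out libraries, against 31 and 14 counts in WT. Its FoP call was lost without clone 2.5 (edgeR adjusted p = 0.121).

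Of the netrins, Ntn4 rose in both lines and Ntn1 in CVP. Ntn4 had 283 and 317 CPM in clone 2.9 and 397 and 439 CPM in clone 2.10, against 195 and 193 CPM in CVP WT, and 402 and 379 CPM in clone 2.4 and 379 and 347 CPM in clone 2.5, against 171 and 175 CPM in FoP WT. The rises were 0.89 ± 0.15 and 1.12 ± 0.15 (edgeR adjusted p = 0.000633 and 0.000363), and all 8 knock-out libraries were above all 4 WT libraries. Both calls of Ntn4 were lost with duplicates summed. Ntn1, the secreted attractant of commissural axons, had 6.89 and 6.92 CPM in clone 2.9 and 8.75 and 7.33 CPM in clone 2.10, against 3.13 and 2.90 CPM in CVP WT (1.31 ± 0.34, edgeR adjusted p = 0.00698, lost without WT duplicate 1, 0.0514, or 2, 0.0613). Its FoP values were 0.912 and 1.73 CPM in clone 2.4 and 2.78 and 2.67 CPM in clone 2.5, against 1.44 and 1.36 CPM in WT. Ntn3 had 18 to 68 counts per library, shares exon with Tbc1d24 (up to 1133 counts), and was not called in either line.

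Both described netrin receptors fell. Unc5b had 53.1 and 55.9 CPM in clone 2.9 and 66.3 CPM in both duplicates of clone 2.10, against 86.8 and 76.2 CPM in CVP WT, and 64.1 to 69.9 CPM in FoP knock-out libraries, against 78.2 and 81.4 CPM in WT. The falls were 0.43 and 0.27 on the log2 scale (edgeR adjusted p = 0.00143 and 0.0362). The FoP call of Unc5b was lost without clone 2.4 (edgeR adjusted p = 0.0615) and without clone 2.5 (0.152). Unc5c had 12 and 27 counts in clone 2.9 and 56 and 30 counts in clone 2.10, against 109 and 141 counts in CVP WT (-1.88 ± 0.55, edgeR adjusted p = 0.0133). Without clone 2.9 the CVP call of Unc5c was lost (edgeR adjusted p = 0.0584). FoP libraries had 0 counts in both duplicates of clone 2.4 and 4 and 2 in clone 2.5, against 70 and 76 counts in WT. With 6 counts in all against 146, FoP WT held 46.7 times the FoP knock-out level in CPM (exact binomial 95% interval 21.0 to 129, counting error only). The other members of the netrin receptor family, Dcc, Unc5a and Unc5d, were under the count rule.

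The difference between the lines was tested as an interaction, the knock-out effect in FoP minus that in CVP, which uses the same libraries as the comparisons above. Of the 55 members, 9 were higher (16.4%) and 4 lower (7.27%), beside 7.28% and 8.49% of all tested genes. Sema7a had the largest positive difference, 3.13 ± 0.61 (edgeR adjusted p = 0.00669), since it fell far less in FoP. Sema5a followed with 0.90 ± 0.12 (edgeR adjusted p = 0.0011), having risen in FoP, and then Sema4c with 0.58, Efna1 with 0.56, Ephb3 with 0.49, Epha2 and Sema4b with 0.45 each, Robo1 with 0.42 and Sema3f with 0.36. Apart from Sema5a, all of these had fallen in CVP. On the negative side Unc5c had -3.56, Plxnd1 -1.28 ± 0.25 (edgeR adjusted p = 0.00612), Robo2 -1.21 ± 0.17 (edgeR adjusted p = 0.00126) and Slit2 -0.41 ± 0.13 (edgeR adjusted p = 0.0476). Without any 1 library, the differences of Ephb3, Plxnd1, Robo1, Robo2, Sema5a and Sema7a still passed, while each of the other 7 was lost without 1 or more libraries (adjusted p up to 0.185), and that of Slit2 also with DESeq2 size factors (0.0518). With duplicates summed, 0 members passed the edgeR test (12 at an unadjusted p under 0.05), as did 0 of all 17076 genes, whereas the DESeq2 Wald test on the libraries called 17.

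Some of these members also differed between the WT cultures, which are libraries of the same comparisons. FoP WT against CVP WT called 1 member higher (1.82%) and 6 lower (10.9%), beside 3.77% and 2.91% of all tested genes. Robo2 was higher in FoP WT, at 17.7 and 19.4 CPM, against 9.39 and 10.3 CPM in CVP WT (0.91 ± 0.14, edgeR adjusted p = 0.00443), so that FoP WT lay within the range of the FoP knock-out libraries, 15.6 to 22.4 CPM. Slit2 (-0.50), Sema5a (-0.57), Sema4c (-0.55), Robo1 (-0.43), Sema4b (-0.38) and Sema3f (-0.30) were lower in FoP WT on the log2 scale. Each arm here is 1 culture, and leaving out any 1 of the 4 WT libraries left 1 or 2 members called.

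Between the knock-out libraries, FoP against CVP called 9 members higher (16.4%) and 10 lower (18.2%), beside 12.1% and 12.3% of all tested genes. Sema7a was higher in FoP knock-out libraries by 2.74 ± 0.38 (edgeR adjusted p = 0.000715), Sema3b by 1.07 ± 0.21 (0.00582), Sema6c by 0.91 ± 0.18 (0.00392) and Epha2 by 0.44 ± 0.07 (0.0009). Sema3c, Sema5a, Efna1, Ephb3 and Epha1 were higher by 0.15 to 0.38. Lower in FoP knock-out libraries were Epha3 (-3.57 ± 0.69 on the log2 scale, edgeR adjusted p = 0.00504), Ntn1 (-1.89 ± 0.27, 0.000715), Slit2 (-0.91 ± 0.07, 2.69e-05), Plxnd1 (-0.91 ± 0.15, 0.00111), Nrp1 (-0.90), Ephb1 (-0.33), Robo2 (-0.29) and Plxna3 (-0.20). Unc5c, with 6 counts against 125, and Epha5, at least 5.65-fold below the CVP knock-out mean at the floor of 3 counts, completed the list. That Epha5 bound does not hold for each library. Clone 2.9 duplicate 2 had 4 counts, or 0.0634 CPM, near the floor of 0.0521 CPM. These values reuse the knock-out libraries of the comparisons above, and with duplicates summed 0 members passed edgeR (20 at an unadjusted p under 0.05), against 22 by DESeq2 on the libraries.

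The clones of a line were less alike than their duplicates. Over the 47 members with a mean of at least 1 CPM, the median log2 difference without sign was 0.08 to 0.12 between duplicates and 0.18 between the clones in each line, against 0.63 (clone 2.9) and 0.80 (clone 2.10) from CVP WT and 0.36 (clone 2.4) and 0.34 (clone 2.5) from FoP WT. Clone 2.10 against clone 2.9 called 5 members higher (9.09%) and 6 lower (10.9%), beside 2.89% and 2.54% of all tested genes. Clone 2.10 held more Sema6d by 1.09 ± 0.25 (edgeR adjusted p = 0.0162), Sema3b by 0.55 ± 0.08 (0.00058), Ntn4 by 0.48 ± 0.07 (0.000476) and Unc5b by 0.28 ± 0.06 (0.0169), and Ephb4 by 0.27. It held less Sema7a (-1.68 ± 0.32, edgeR adjusted p = 0.0051), Sema3e (-1.49 ± 0.29, 0.0081), Ephb2 (-1.02 ± 0.14, 0.000321), Plxna2 (-0.66 ± 0.18, 0.0439), Efnb2 (-0.33) and Sema4d (-0.27). For Sema7a, Sema3e and Plxna2, clone 2.10 was therefore further below CVP WT than clone 2.9. For Ntn4 it was further above, and for Sema6d it was nearer to WT. The calls of Sema3b, Ntn4 and Ephb2 held without any 1 library, and the other 8 were lost without 1 or more of them (adjusted p up to 0.339).

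**Figure D4:**
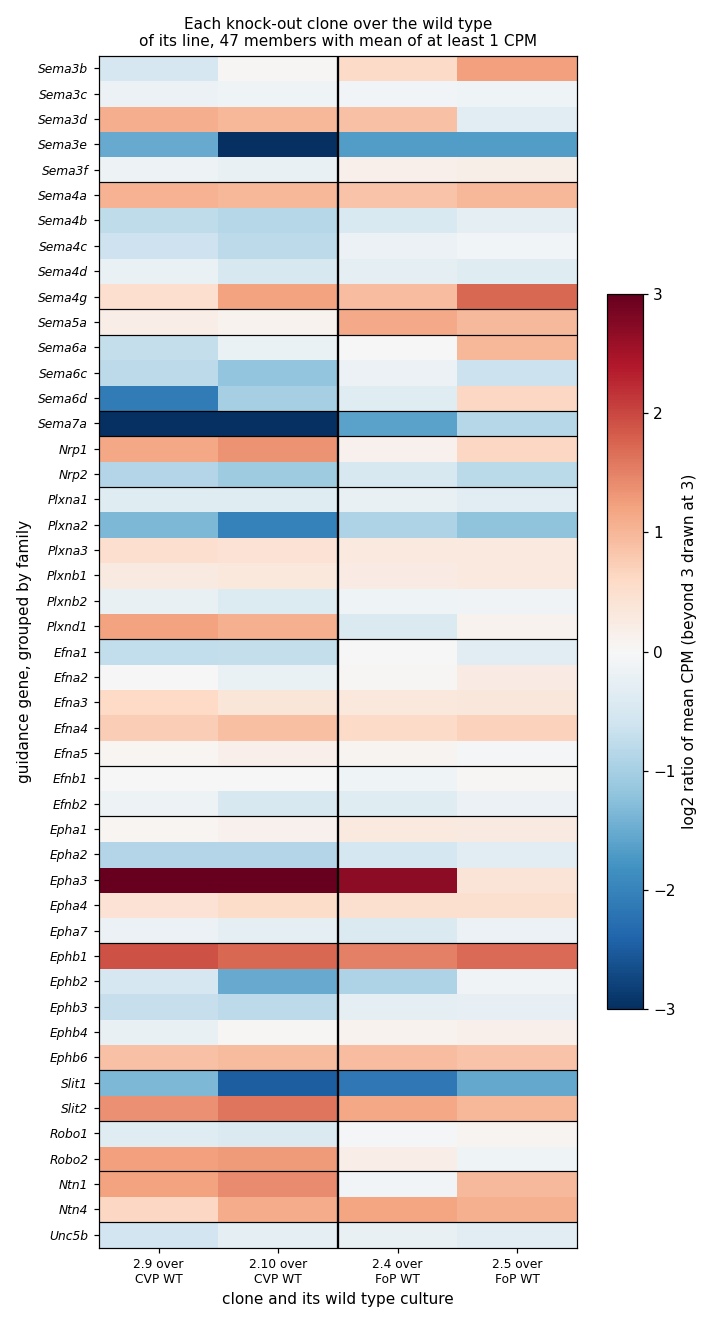
Log2 ratio of each clone's mean CPM over the WT mean of its line for the 47 members with at least 1 CPM on average, by family (red higher, blue lower, values beyond 3 drawn at 3). The CVP columns are deeper in colour than the FoP columns, and Sema3d, Sema6d, Plxnd1 and Ntn1 are among those that differ in sign between the FoP clones.

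Clone 2.5 against clone 2.4 called 6 members higher (10.9%) and 2 lower (3.64%), beside 3.53% and 3.72% of all tested genes. Ntn1 was higher in clone 2.5 by 1.04 ± 0.24 (edgeR adjusted p = 0.0164), Sema6d by 1.00 ± 0.24 (0.0195), Ephb2 by 0.82 ± 0.14 (0.00276), Sema7a by 0.75 ± 0.20 (0.0382) and Sema3b by 0.67 ± 0.08 (8.07e-05). Sema6a was higher by 0.99 ± 0.17 (0.00243), at 6.59 and 7.29 CPM in clone 2.5, against 3.19 and 3.78 CPM in clone 2.4, with FoP WT at 3.53 and 3.40 CPM. Sema3d was lower by 1.21 ± 0.21 (0.0146) and Efna1 by 0.32 ± 0.08 (0.0258). Sema3b and Sema6d were thus higher in clone 2.10 than in 2.9 and in clone 2.5 than in 2.4. Here the calls of Ephb2, Sema3b and Sema6a held without any 1 library, and the other 5 did not (adjusted p up to 0.216). Ephb2 and Sema7a were lower in clone 2.10 than in 2.9 and higher in clone 2.5 than in 2.4.

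A list of 80 partner genes, 29 co-receptors and further ligands and 51 cytoplasmic proteins that act with these receptors, showed changes of both signs as well. Of the 70 tested, 19 were higher and 21 lower in CVP knock-out libraries (median log2 change -0.05), and 18 were higher and 12 lower in FoP (median 0.10), beside the shares of all tested genes given above. Vegfa, a neuropilin ligand, was lower by 1.40 in CVP and 0.99 in FoP on the log2 scale, and Dapk1, a kinase tied to Unc5 receptors in cell death, by 1.32 and 0.87. Srgap3, a GTPase-activating protein of the Slit-Robo pathway, was lower by 0.77 in CVP and by 0.58 in FoP. Ntng1, a membrane-anchored netrin-G that does not bind the classical netrin receptors, was higher by 0.71 in CVP and 1.31 in FoP, at 104 to 159 and 149.9 to 176 CPM in knock-out libraries, against 70.9 to 88.3 and 60.0 to 70.4 CPM in the WT of each line. Fyn, a kinase downstream of Eph and netrin receptors, was higher by 0.89 and 0.57, and Dag1, the dystroglycan that binds Slits, by 0.60 and 0.50. Neo1, a receptor for netrins, did not change in CVP (0.00 ± 0.07) and rose in FoP by 0.48 ± 0.07 (edgeR adjusted p = 0.000507), where it had 215 to 236 CPM in knock-out libraries, against 155 and 166 CPM in WT.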

How the data were processed

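The values used were counts per gene, deposited by the authors as 1 table of 12 libraries. Per the submitters' processing notes, STAR, featureCounts and the build hg38 were used, while the deposited counts carry mouse symbols. Versions and the strand and pairing settings are not given in the sources used here. Even values were in excess (20289 values of 2 and 6626 of 3, with 20007 of 1), so counting intervals and floors may be too narrow, and they cover counting error only.

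Counts were filtered with filterByExpr, scaled by TMM and tested with edgeR 4.0.16 (R 4.3.3, limma 3.58.1) by the quasi-likelihood test, with the 4 arms of 12 libraries as groups (6 cultures for contrasts between clones) and Benjamini-Hochberg adjustment over 17076 genes at a threshold of 0.05. The test was run on simulated libraries, drawn independently with the same dispersion for all genes and with changes planted in some genes. These held no correlation between duplicates of a culture, so that run does not cover such correlation. SE is the absolute log2 change divided by the square root of F. CPM used TMM-scaled library sizes, and CPM per kb the union exon length of GENCODE M21 (GRCm38). The union counts every annotated exon of a gene, so it may exceed the length of the transcript expressed. Members, lists and motifs were chosen with earlier results of these data known. Members with full values were, per comparison, the 4 members that changed most upward and the 4 that changed most downward among those called with a mean of at least 1 CPM, and the most abundant of each family; other members are given more briefly.

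Alternatives were DESeq2 1.42.0 and its size factors, other filters, halved counts, limma voom with culture as block, duplicates summed, other groupings, a test against a 2-fold change, the duplicate number as a block, and leaving out each library or clone. Duplicate numbers did not pair the cultures: the 15 correlations of duplicate differences between cultures ran from -0.0556 to 0.114.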

Additional observations from a re-analysis of the deposited data

Results flagged for a closer look

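In groups of 4 libraries, 2 of 94 groups of member values had 1 library far from the other 3. Chance flags about 1 in 20 where the 4 values are independent. Here each group was 2 clones in duplicate, so that rate need not hold. Efna5 in FoP knock-out libraries had 48.8 CPM in clone 2.5 duplicate 2, against 57.0 to 58.0 CPM in the other 3. Ephb1 in FoP knock-out libraries had 14.9 CPM in clone 2.4 duplicate 2, against 18.4 to 19.1 CPM in the other 3.

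The knock-out effect differed between the lines, by the interaction test in edgeR, for 13 members. The log2 effect in FoP minus that in CVP was 3.13 for Sema7a, 0.90 for Sema5a, 0.58 for Sema4c, 0.56 for Efna1, 0.49 for Ephb3, 0.45 for Epha2, 0.45 for Sema4b, 0.42 for Robo1 and 0.36 for Sema3f. It was -3.56 for Unc5c, -1.28 for Plxnd1, -1.21 for Robo2 and -0.41 for Slit2. Slit2 had risen in both lines, and Epha2, Ephb3, Sema4b, Sema7a and Unc5c had fallen in both. For these members the lines differed in size and not in sign. Sema3f was called in opposite directions, and the others were called in 1 line only.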

How the results depend on the processing

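Direction was kept by all called members under every alternative run. Numbers of members called moved as follows. With duplicates summed, leaving 2 residual degrees of freedom, 22 of 34 were called for knock-out against WT in CVP and 5 of 31 in FoP; 0 were called for the interaction (12 at an unadjusted p under 0.05), FoP WT against CVP WT (9) and FoP knock-out against CVP knock-out (20). Against a 2-fold change, 5 were called in CVP, 2 in FoP, 2 for FoP knock-out against CVP knock-out, and 0 for the interaction (5 unadjusted), WT against WT (0), clone 2.10 against 2.9 (2) and clone 2.5 against 2.4 (3). DESeq2 on the libraries called 17, 9, 14 and 10 in those last 4. With limma voom and culture as block, the interaction gave 8 and WT against WT 4. With 6 cultures as groups, the interaction gave 23, WT against WT 15 and FoP knock-out against CVP knock-out 30. With the groups compared alone, WT against WT gave 22, clone 2.10 against 2.9 gave 5 and clone 2.5 against 2.4 gave 13, and the last gave 16 without a filter. With duplicates summed, 0 of all 17076 genes were called for the interaction, 0 for WT against WT and 22 between the knock-outs. Against a 2-fold change, 8 genes were called for the interaction and 5 for WT against WT. Clone 2.10 against 2.9 then gave 112 genes, and clone 2.5 against 2.4 gave 117. For the other settings, here and below, the share of all tested genes is not given. Those counts therefore cannot be read as particular to the members. The cause was not tested.

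Leaving out 1 library at a time gave 30 to 39 in CVP, 15 to 29 in FoP, 7 to 15 for the interaction, 1 to 2 for WT against WT, 15 to 21 for FoP knock-out against CVP knock-out, 6 to 10 for clone 2.10 against 2.9 and 3 to 6 for clone 2.5 against 2.4; a lone library of an arm is then assumed to vary like the others. With the duplicate number as a replicate block, the counts were 34 in CVP, 28 in FoP, 12 for the interaction, 6 for WT against WT, 18 between knock-outs, and 12 and 8 for the clones; these numbers do not pair the cultures. Calls kept under all alternatives were Ephb1, Plxna2, Sema7a and Slit2 in CVP, and Ephb1 in FoP. With counts halved, the FoP call of Epha5 was lost (adjusted p = 0.0519), while Unc5c kept its calls in both lines and Robo3 its FoP call. The Robo3 call was lost without clone 2.5 (edgeR adjusted p = 0.121), and the CVP call of Unc5c without clone 2.9 (0.0584).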
